A study of Homo sapiens with 32 samples.

Results

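The comparison described here is the effect of PP242 in MDA-MB-231 cells that were already hypoxic. It used the 8 of the 32 RNA-Seq libraries of the series that the labels assign to these groups: 4 of total mRNA (T) and 4 of polysome-bound mRNA (P), with 2 replicates of each group. The sources used here do not say whether replicates came from separate cultures, so p-values measure only the spread between these libraries, which may be technical. MDA-MB-231 is a human cell line from a metastatic triple-negative breast carcinoma, and the other line of the series, MCF10A, entered only as a check of identity. The hypoxia group (H) was kept in 0.5% O2 for 24 hours. The hypoxia with PP242 group (HPP) had the same hypoxia and received PP242 at 2.5 µM for 3 hours. Low oxygen was therefore common to both groups, and the drug was what differed between them. For setting side by side, normoxic cells without (N) and with PP242 (NPP) were also read, in 8 more MDA-MB-231 libraries. Each fraction was compared on its own, HPP against H, and the difference between the fractions was then tested as the change in translational efficiency (Te), the log2 fold change (log2FC) in P minus the log2FC in T. The study asked which mRNAs low oxygen and a blocked mTOR pathway move at the level of mRNA amount and which at the level of translation.

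mTOR is a protein kinase that works in a pair of complexes and sets protein synthesis and growth by nutrients, growth factors and energy. Its first complex phosphorylates the 4E-BP proteins and S6 kinases, and unphosphorylated 4E-BP binds the cap-binding factor eIF4E and keeps initiation from starting. mRNAs with a 5′ terminal oligopyrimidine (TOP) tract, a C at the cap followed by a run of C and T, code for the ribosomal proteins and many elongation factors and leave polysomes most readily when mTOR is blocked. The second complex activates AKT, which holds FOXO transcription factors out of the nucleus. PP242 occupies the ATP pocket of the kinase, and thereby reaches both complexes. A polysome is an mRNA that carries several ribosomes, and its share of an mRNA was read after separation on a sucrose gradient.

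The 4 total libraries held 36585976 and 25094053 counts in H and 37207103 and 31001024 in HPP (replicates 1 and 2), and the 4 polysomal libraries 28771179 and 31183417 in H and 32040328 and 39536845 in HPP. Levels are given as CPM (counts scaled to a common library total) after TMM scaling, which lines libraries up on the bulk of their genes. Values are therefore relative within a library: a loss of all polysomal mRNA alike would not be seen, and in these bulk samples fewer cells with an mRNA and less of it per cell cannot be told apart. The hypoxic label held in every library: CA9, a carbonic anhydrase induced by low oxygen, lay between 0.0568 and 1.02 CPM in the 8 normoxic libraries and between 13 and 34.6 CPM in the 8 hypoxic ones. NDRG1, another hypoxia-induced gene, lay between 45.8 and 119 CPM in normoxia and between 598 and 1414 CPM in hypoxia. Markers of the lines were read over the 8 libraries compared and set beside MCF10A, whose values were scaled on their own without TMM, with no test. The kinase AXL stood at 700 to 1053 CPM (199 to 411 in MCF10A), CD44 at 605 to 903 (202 to 594) and the transcription factor ZEB1 at 55.1 to 88.2 (3.58 to 36.7), all above MCF10A. The keratins KRT5 (at most 0.132 CPM, 1285 to 3558 in MCF10A) and KRT14 (at most 0.61, 506 to 4575) were almost absent. Other markers did not part the lines in that way. VIM (vimentin, 3819 to 6082 CPM) and the basal markers LAMB3 (298 to 557) and SFN (113 to 272) lay within the MCF10A ranges, and the mesenchymal markers FN1 (115 to 283), CDH2 (at most 0.762) and SPARC (at most 0.493) lay below them. CDH1 (at most 0.343), TP63 (at most 0.168) and DSC3 (at most 0.0381) were near 0 here and in MCF10A (at most 0.393, 0.245 and 0.172), and did not part the lines. Of the receptors low in triple-negative cells, ESR1, the oestrogen receptor, did not exceed 0.197 CPM and PGR did not exceed 0.326 CPM. ERBB2 was detected in every library, at 25.7 to 46.5 CPM, below the 89.1 to 216 of MCF10A.

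The replicates of H total mRNA differed in composition. In replicate 2 of H total mRNA, relative to replicate 1, the ribosomal protein mRNAs were higher by a median log2 difference of 0.62, the nuclear-coded respiratory chain mRNAs by 0.56 and the 13 mitochondrially encoded mRNAs by 0.92. The tenth of genes with the shortest transcripts was higher by 0.43 and the tenth with the longest lower by 0.38. In HPP total mRNA the same differences were −0.01, 0.00, 0.09, 0.02 and 0.05. In polysomal mRNA replicate 2 was higher in the mitochondrially encoded mRNAs by 0.61 in H and 0.95 in HPP, and in H it was lower in the ribosomal proteins by 0.34. Which of the H total libraries is the unusual one cannot be told. The ribosomal protein share of replicate 1 was the lowest of the 8 total MDA-MB-231 libraries (6.74%) and that of replicate 2 (8.91%) lay within the 7.67 to 9.03% of N and NPP, while the mitochondrially encoded share of replicate 2 was the highest of the 8 (7.8%). Replicates agreed less closely than read counting alone would give in every group, so none was a repeat deposit of another, which does not show that they came from separate cultures.

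Transcript starts are shown because the TOP tract lies there. The first bases of 8 mRNAs that lost polysomal mRNA or Te are set beside those of 4 that gained mRNA in both fractions. The 8 were picked from the ribosomal protein and known TOP lists, and the 4 from the largest polysomal increases of all genes. Each line gives 5 bases before the annotated RefSeq transcript start and the first 20 of the transcript (GRCh38.p14, sense strand), with the tract in capitals where the transcript opens with C followed by at least 4 bases of C or T.
RPS27 (chr1:153990757-153990781, plus strand): tcgctCCTTTCCggcggtgacgacc
RPL39 (chrX:119791611-119791635, minus strand): agcttCCCTCCTCTTCCTTTCTCCg
RPL12 (chr9:127451387-127451411, minus strand): tccggCCTCTCggctttcggctcgg
RPS28 (chr19:8321491-8321515, plus strand): acgtgactcctctccgccagaccgc
RPS29 (chr14:49598691-49598715, minus strand): gcagctggcagcggtggttgtttct
TPT1 (chr13:45341164-45341188, minus strand): tcggcCTTTTCCgcccgctcccccc
EEF1A1 (chr6:73521013-73521037, minus strand): acgttCTTTTTCgcaacgggtttgc
EEF1G (chr11:62573872-62573896, minus strand): ggcttactttgcggcagcgccgaga
KLHL24 (chr3:183635618-183635642, plus strand): cctttgttgtgagctgcggcagaga
CREBRF (chr5:173056347-173056371, plus strand): ggggcgagtcacgcgatttccggga
CCNG2 (chr4:77157202-77157226, plus strand): tcgaaactcttaacaaaaacaaggg
HBP1 (chr7:107168998-107169022, plus strand): ttgaaagacttggtaatggcgacgg
RPS27, RPL39, RPL12, TPT1 and EEF1A1 opened with a tract, and none of the 4 that rose did. RPS28, RPS29 and EEF1G have none by this rule, although a run of C and T begins at the second base of the annotated RPS28 transcript. Of all genes with a start found 5.28% opened with a tract, and of those called higher in polysomal mRNA 4.46%. A difference between the 8 and the 4 therefore follows largely from the choice of genes. An annotated start is 1 position of a gene and need not be the start used in these cells.

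PP242 in hypoxia gave more calls in polysomal than in total mRNA. Of 13510 protein-coding genes tested with edgeR, 511 passed an adjusted p under 0.05 in total mRNA (3.78%), 230 of them higher in HPP and 281 lower. In polysomal mRNA 1551 passed (11.5%), 656 higher and 895 lower. Of these genes 390 were called in both fractions, all in the same direction. That was 76.3% of the total mRNA calls and 25.1% of the polysomal calls. At an unadjusted p under 0.05 in edgeR the counts were closer, 2500 in total and 3592 in polysomal mRNA. Te passed in 84 genes (0.622%), and all 84 were lower in HPP. No gene was called with a higher Te in this fit: an unadjusted p under 0.05 was given to 45 genes in the higher and 406 in the lower direction, and DESeq2 called 0 higher and 135 lower. Other settings did give higher calls, 8 of 138 with no filter beyond 1 read, 21 of 187 by a z-score rule, 3 of 61 with total and polysomal libraries of 1 number blocked as 1 culture, and 1 each in the fit to only the libraries compared, with the replicate block, at an adjusted p under 0.10 and without replicate 1 of total H or of total HPP. Called genes had a median change in size of 0.80 log2 units in total mRNA, 0.81 in polysomal mRNA and 1.72 in Te, against a median SE over all genes of 0.19, 0.19 and 0.27. On library totals without TMM, which raised the median of all genes by 0.17 in polysomal mRNA and by 0.12 in Te, the polysomal calls were 1263 higher and 599 lower (67.8% higher, against 42.3% with TMM). The counts depended on single libraries. The count in total mRNA was 50 without H replicate 2, 792 without H replicate 1, 156 without HPP replicate 1 and 24 without HPP replicate 2, and the 50 were all among the 511. The polysomal count was 1032 and 667 without H replicates 1 and 2, and 368 and 549 without HPP replicates 1 and 2. The Te count was 36 without polysomal HPP replicate 1 and 41 without polysomal HPP replicate 2.

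**Figure D1:**
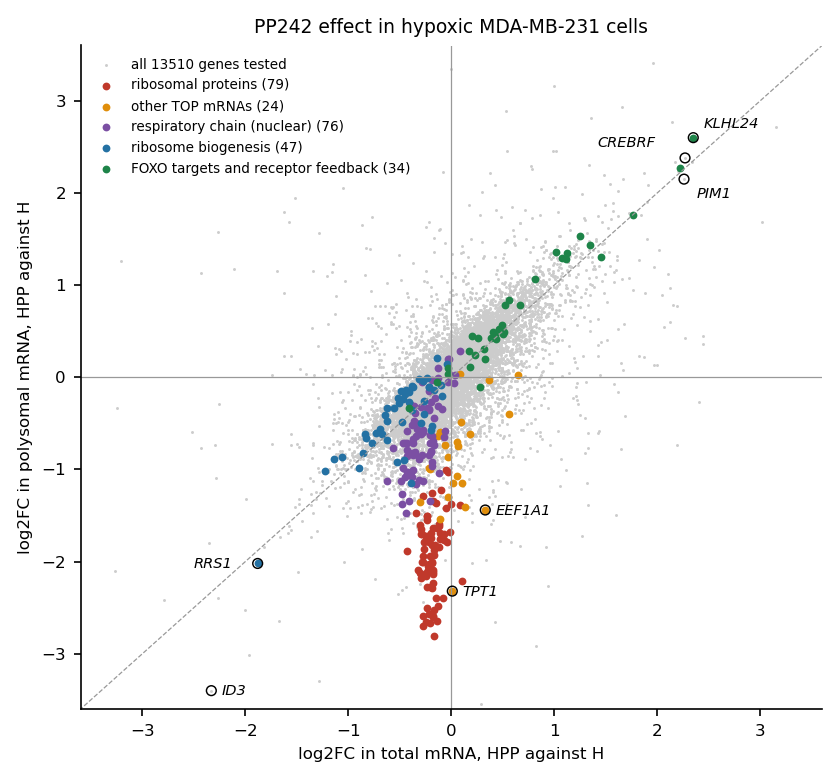
Log2FC of each gene in total mRNA (x axis) and in polysomal mRNA (y axis), HPP against H, with 5 gene lists in colour, 7 named genes ringed and the dashed line marking an equal change; 53 genes lie beyond the axes. The 79 ribosomal protein mRNAs form a column below the rest, near 0 in total mRNA and between −2.81 and −1.01 in polysomal mRNA. KLHL24, CREBRF, PIM1 and RRS1 lie far along the diagonal or close to it, and ID3, low in both fractions, lies below it.

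Ribosomal protein mRNAs made up the clearest group. Their share of the protein-coding counts in polysomal mRNA was 9.64 and 8.32% in the H replicates and 2.83 and 2.97% in the HPP replicates, so both drug-treated libraries lay far below both untreated ones. In total mRNA the share was 6.74 and 8.91% in H and 7.23 and 7.36% in HPP, and the H values lay on either side of the HPP values. All 79 fell in polysomal mRNA (6.62% of all genes tested were called lower), with a median log2FC of −1.86 against 0.00 over all genes tested, and all 79 were still called when any 1 of the 4 libraries was left out. In total mRNA edgeR called 0 of 79. None passed an unadjusted p under 0.05 either and DESeq2 called 0. Their median there was −0.19, but it was 0.17 without H replicate 2. Te fell in 68 of 79 (0.622% of all genes tested were called lower), with a median of −1.70 and all 79 below 0. DESeq2 called all 79. By replicate number the Te median was −2.25 and −1.19. The count of Te calls was 43 with the culture block (median −1.72). It was 78 without H total replicate 2, and fell to 29 and 32 without polysomal HPP replicate 1 or 2, to 48 without polysomal H replicate 1 and to 49 without HPP total replicate 1.

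**Figure D2:**
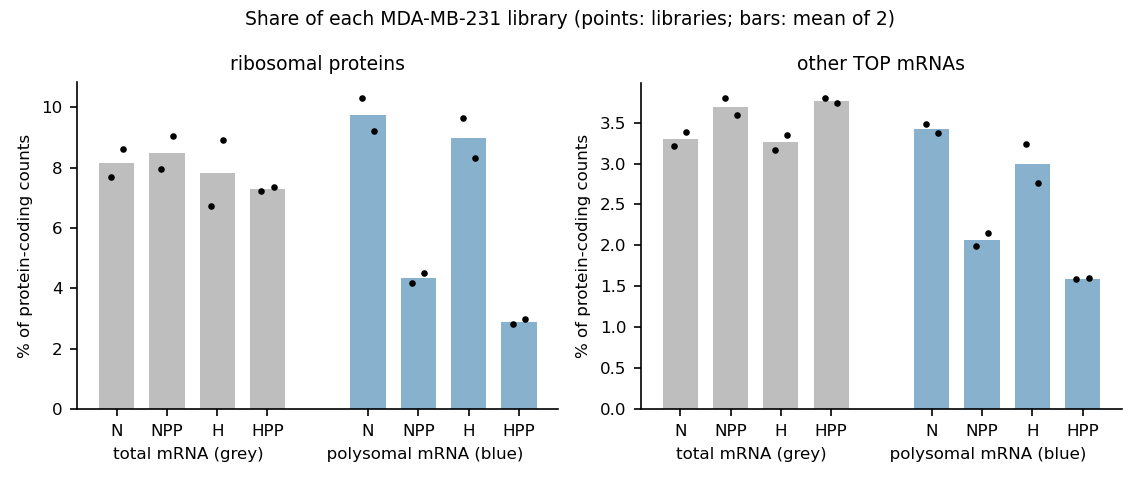
Share of protein-coding counts (%) taken by the 79 ribosomal protein mRNAs and by 24 other TOP mRNAs in each of the 16 MDA-MB-231 libraries (points) with the mean of the 2 replicates (bars), total mRNA in grey and polysomal mRNA in blue. The polysomal ribosomal protein share is 2.83 and 2.97% in HPP against 9.64 and 8.32% in H, with no such gap in total mRNA.

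Among single members RPS27 of the small subunit had the lowest polysomal value. RPS27, whose start carries a 7-base tract, stood at 606 and 505 CPM in polysomal H and at 82.3 and 75.7 CPM in polysomal HPP, with 532 and 860 CPM in total H and 635 and 600 CPM in total HPP. Its polysomal groups were far apart while the total HPP values lay between the H values. The polysomal log2FC was −2.81 ± 0.23 (SE, adjusted p = 5.9e-06) and the Te change −2.64 ± 0.31 (adjusted p = 0.000671). RPS28, whose annotated start has no tract, gave 381 and 401 CPM in polysomal H and 63.8 and 61.6 CPM in HPP, a log2FC of −2.64 with a Te change of −2.50. RPS29 gave 419 and 408 CPM in polysomal H and 67.8 and 62.1 CPM in HPP, and its Te change was −2.46. Both HPP values of each lay below both H values by a wide margin.

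Of the large subunit, RPL39, RPL12 and RPL8 are given, and the subunits were not compared. RPL39 stood at 1226 and 927 CPM in polysomal H and at 166 and 167 CPM in polysomal HPP (Te change −2.43). RPL12 stood at 669 and 577 CPM in polysomal H and at 103.04 and 102.09 CPM in HPP (Te change −2.42), and at 946 and 1337 CPM in total H and 1012 and 1003 CPM in total HPP. For both genes the polysomal groups did not overlap and the total mRNA values of HPP lay within the range of H. RPL12 fell by 2.60 ± 0.20 on the log2 scale in polysomal mRNA (adjusted p = 4.17e-06). RPL8, the ribosomal protein mRNA with the most counts in polysomal H, stood at 2922 and 2649 CPM in polysomal H and at 1036 and 1171 CPM in HPP, a log2FC of −1.34. Its Te change of −1.15 did not pass (adjusted p = 0.0563), as for 10 other members. Ribosomal protein genes have many processed pseudogenes and the authors' counting could have split reads among near-identical copies, so single values are less certain than the direction of the group.

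Of 24 other mRNAs with a known TOP tract, mostly elongation factors and other parts of the translation apparatus, 17 fell in polysomal mRNA (70.8%, against 6.62% of all genes; median −0.80) and 7 in Te (29.2% against 0.622%; median −0.80). By replicate number the Te median of the list was −1.28 and −0.51. TPT1, a growth-related protein of high abundance, stood at 1175 and 933 CPM in polysomal H and at 205 and 219 CPM in HPP. In total mRNA it stood at 1248 and 1751 CPM in H and 1568 and 1449 CPM in HPP. Its polysomal groups were far apart and its total groups overlapped. Its Te change of −2.32 ± 0.24 (adjusted p = 0.000671) was as large as its polysomal log2FC of −2.32. EEF1A1, which brings aminoacyl-tRNA to the ribosome, had 14366 and 10363 CPM in polysomal H and 4595 and 4542 CPM in HPP. In total mRNA it had 13252 and 14797 CPM in H and 18191 and 17067 CPM in HPP. The polysomal value was thus lower in HPP and the total value higher, though only the first passed (log2FC −1.44, adjusted p = 4.69e-05, and 0.33, adjusted p = 0.253). The other 5 with a lower Te were EEF1G (−1.54), which has no tract at its annotated start, YBX1 (−1.43), GNB2L1 (−1.26), the RACK1 protein of the small subunit, EEF1D (−1.26) and EIF3F (−1.13). EIF4B, a helper of the eIF4A helicase, was the only member called in total mRNA and it was higher there (0.65, adjusted p = 0.0354), with a polysomal value of 0.02. The polysomal count was 9 and 12 without HPP replicates 1 and 2, and the Te count ran from 4 without either of these, and with the culture block, to 10 without H total replicate 2. The call of EIF4B in total mRNA was lost without H replicate 2 and without either HPP replicate.

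Of the 84 genes with a lower Te, 9 were in neither list, and they are named here because of these values. SLC25A6, the mitochondrial ADP/ATP carrier, stood at 212 and 180 CPM in polysomal H and 71.5 and 70.3 CPM in HPP (Te −1.67, adjusted p = 0.000796). CRTAP, a partner of collagen prolyl hydroxylase, stood at 195 and 214 CPM in polysomal H and 88.4 and 88.1 CPM in HPP (Te −1.48, adjusted p = 0.000671). Neither was called in total mRNA, and their polysomal groups did not overlap. RPL22L1, a paralogue of a ribosomal protein, and NME2, a nucleoside diphosphate kinase, both had a Te change of −1.83. TMEM256 (−1.45), AHCY, the S-adenosylhomocysteine hydrolase (−1.11), CHP1 (−0.95) and GLTSCR2, a nucleolar protein (−0.93), made up the rest with FAM156B. FAM156B (−5.55) is close to identical to FAM156A, was read at 0.326 and 0.0911 CPM in total H, and is uncertain. A RefSeq start was found for 13 of the 16 called genes that are not ribosomal proteins, and 6 of these (46.2%) opened with a TOP tract. The 16 include the 7 from the list of other TOP mRNAs. Among the 9 in neither list, 3 had such a start and 5 had a start without a tract, against 5.28% with a tract over all genes.

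A start was found for 10312 of the 13510 genes tested, and 544 of these (5.28%) opened with C followed by at least 4 bases of C or T. Among ribosomal proteins it was 43 of 63 (68.3%), among the other TOP mRNAs 12 of 16 (75%) and among all genes with a lower Te 45 of 68 (66.2%). Among polysomal calls the share was 15.9% of the 687 that fell and 4.46% of the 493 that rose. The mitosis and FOXO lists had 0 of 28 and 0 of 29. Outside the ribosomal protein and other TOP lists, 489 genes had such a start: 59 of them fell in polysomal mRNA (12.1%) and 3 in Te (0.613%), against 555 (5.70%) and 5 (0.0513%) of the 9744 without one. The median polysomal log2FC of these 489 was −0.07. A match is a description of the annotated sequence and not of a site that was tested.

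Of 37 initiation factors and their inhibitors, 1 rose and 1 fell in total mRNA (2.7% each way, against 1.7% and 2.08% of all genes), and both calls were lost without H replicate 2. In polysomal mRNA 2 rose and 5 fell (5.41% and 13.5%, against 4.86% and 6.62% of all genes; 1 higher and 2 to 4 lower with a library left out), and edgeR called 0 in Te (3 lower at an unadjusted p under 0.05, 1 lower by DESeq2). EIF4EBP1, the cap-binding repressor 4E-BP1 that mTOR inactivates, stood at 69.2 and 96.6 CPM in polysomal H and 24.1 and 35.5 CPM in HPP, against 88.71 and 107.15 CPM in total H and 78.5 and 82.1 CPM in total HPP. Both HPP values were lower in each fraction, by far more in polysomes. It fell by 1.48 on the log2 scale in polysomal mRNA (adjusted p = 0.000394), and its Te change was −1.19 (adjusted p = 0.105). EIF4EBP2, its paralogue, had 48.5 and 88.6 CPM in polysomal H and 29.3 and 28.9 CPM in HPP (log2FC −1.24, adjusted p = 0.0037). EIF4E, the cap-binding protein, was called lower in total mRNA (−0.74, adjusted p = 0.0166), and its polysomal value of −0.45 (adjusted p = 0.0644) and Te value of 0.29 did not pass. PDCD4, which blocks the eIF4A helicase, rose from 55.01 and 60.41 to 131.56 and 112.17 CPM in total mRNA and from 65.7 and 48.7 to 136 and 144 CPM in polysomes (log2FC 1.08 and 1.29). EIF3K and EIF3G, subunits of the eIF3 complex, fell in polysomal mRNA by 0.85 and 0.55.

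Ribosome biogenesis factors build ribosomes in the nucleolus. Of 47 tested, 14 fell in total mRNA (2.08% of all genes were called lower) and 16 in polysomal mRNA (6.62%), with medians of −0.46 and −0.35 and none higher. RRS1, needed for assembly of the large subunit, stood at 59.8 and 65.9 CPM in total H and at 16.9 and 17.3 CPM in total HPP, and at 91.3 and 58.8 CPM in polysomal H and 17.8 and 19.2 CPM in polysomal HPP. The groups were well apart in both fractions. Its log2FC was −1.88 ± 0.19 (adjusted p = 0.000155) and −2.02 ± 0.19 (adjusted p = 1.4e-05). NOP2, a methyltransferase of the large ribosomal RNA, fell from 82.0 and 85.4 to 38.7 and 32.7 CPM in total mRNA and from 82.2 and 68.7 to 40.0 and 34.6 CPM in polysomal mRNA. LTV1, an assembly factor of the small subunit (−1.14 and −0.89), and WDR43, which joins RNA polymerase I output to processing (−0.84 and −0.62), were also called in both. The Te median of the list was 0.14, edgeR and DESeq2 called 0 in Te and 1 was lower at an unadjusted p under 0.05. NHP2 was called in polysomal mRNA alone (−1.15). Without H replicate 2, HPP replicate 1 or HPP replicate 2 the count in total mRNA was 3, 6 or 2, and the polysomal count ran from 3 to 16 with 1 library left out, while the median in total mRNA stayed between −0.43 and −0.41.

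Of 76 nuclear-coded mRNAs of the mitochondrial respiratory chain, 38 fell in polysomal mRNA (50%, against 6.62% of all genes; median −0.68), 38 were not called and none rose. Their share of polysomal protein-coding counts was 1.44 and 1.33% in H and 1.05 and 1.12% in HPP, without overlap. In total mRNA edgeR called 0, with 11 lower at an unadjusted p under 0.05 and 1 lower by DESeq2. The median of −0.28 there was 0.04 without H replicate 2. ATP5G2, a subunit of the ATP synthase ring, stood at 334 and 270 CPM in polysomal H and 116 and 123 CPM in polysomal HPP, with 157 and 232 CPM in total H and 162 and 175 CPM in total HPP. Its polysomal groups were apart and the total HPP values lay within those of H. The log2FC was −1.34 (adjusted p = 0.00036) and the Te change −1.13 (adjusted p = 0.0699). UQCR10 of complex III (−1.37), ATP5L of the ATP synthase (−1.34) and COX5A of complex IV (−1.12) were further members called in polysomes. In Te edgeR called 0 of 76, with 21 lower at an unadjusted p under 0.05 and 2 lower by DESeq2. The replicates differed there, with medians of −0.86 and 0.13, and 5 were called lower without H total replicate 2. The polysomal count was 23 and 27 without H replicates 1 and 2, and 7 and 20 without HPP replicates 1 and 2.

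Mitochondrial ribosomal proteins are also coded in the nucleus. Of 76, 2 fell in total mRNA (2.63%, near the 2.08% of all genes) and 23 in polysomal mRNA (30.3% against 6.62%, median −0.41), with MRPL36 (−1.42) and MRPL23 (−1.31) among the lowest. In Te edgeR called 0, with 10 lower at an unadjusted p under 0.05 and 2 by DESeq2. The count in total mRNA was 17 without H replicate 1 and 0 without any 1 of the other 3 libraries, and that in polysomal mRNA was 5 without HPP replicate 1 and 17 without any 1 of the others. The 13 mitochondrially encoded mRNAs, which are translated inside mitochondria, were not called in any of the comparisons by the main fit, at an unadjusted p under 0.05 or by DESeq2. In polysomal mRNA 2 were called higher with no filter beyond 1 read. With an offset for transcript length 1 was called higher there, and the median was 0.47 in place of 0.01. MT-CO1, a subunit of complex IV, was read at 12930 and 18338 CPM in total H and 15593 and 14082 CPM in total HPP, and at 1461 and 2697 CPM in polysomal H and 1328 and 1898 CPM in HPP.

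Transcript length moved with these results. The polysomal mRNAs that fell had a median transcript of 1608 bases, those that rose 4113 and all tested 3328, and 361 of the 1345 genes with the shortest transcripts fell against 18 of the 1345 with the longest. Even the 799 that fell outside the ribosomal protein and other TOP lists had a median of 1679 bases. When a smooth term for length was fitted in each library, 1544 genes were called in polysomal mRNA and 1187 of them were among the 1551. Then all 79 ribosomal proteins still fell (median −1.45), but the respiratory chain median was −0.18 with 19 called lower, and the mitochondrial ribosomal protein median −0.22 with 18. Replication-dependent histones moved up, from a median of 0.83 with 12 called higher to 1.49 with 17. The part of length in the result was not tested further.

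Targets of FOXO factors and of receptor feedback turn on when AKT is less active. Of 34, 8 rose in total mRNA (1.7% of all genes were called higher) and 11 in polysomal mRNA (4.86%), with medians of 0.47 and 0.49 and none lower. CCNG2, an unusual cyclin tied to cell cycle exit, rose from 57.9 and 83.1 to 369 and 286 CPM in total mRNA and from 38.8 and 56.8 to 222 and 241 CPM in polysomal mRNA. KLHL24, an adaptor of a ubiquitin ligase, rose from 9.94 and 7.11 to 48.0 and 39.5 CPM in total mRNA and from 9.15 and 6.34 to 46.2 and 47.8 CPM in polysomes. Each HPP value was several times each H value for both genes. Their log2FC in total mRNA was 2.22 ± 0.25 (adjusted p = 0.000558) and 2.35 ± 0.42 (adjusted p = 0.00993). TXNIP, an inhibitor of glucose uptake, rose by 1.12 in total and 1.35 in polysomal mRNA, KLF6, a transcription factor, by 1.25 and 1.53, and SESN3, a brake on mTOR complex 1, by 1.45 and 1.30. IRS2, a docking protein of the insulin receptor, was not called (0.67 and 0.78). In Te edgeR and DESeq2 called 0 of 34, none passed an unadjusted p under 0.05 and the median was 0.08. Without H replicate 2, HPP replicate 1 or HPP replicate 2 the count in total mRNA was 1, 4 or 2, and the polysomal count was 7 without H replicate 2.

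Genes with the largest increases overall included 4 outside that list. PIM1, a growth-promoting kinase, had the smallest error of them. It was read at 28.5 and 29.8 CPM in total H, 127 and 152 CPM in total HPP, 29.4 and 29.0 CPM in polysomal H and 118 and 142 CPM in polysomal HPP. The HPP values were over 100 CPM in every library and the H values under 30. Its log2FC was 2.26 ± 0.14 in total mRNA (adjusted p = 1.38e-06) and 2.15 ± 0.14 in polysomal mRNA (adjusted p = 1.32e-06). CREBRF, a regulator of CREB3 factors (2.27 and 2.38), HBP1, a repressor of the cell cycle (1.87 and 2.22), and RHEBL1, a relative of the mTOR activator RHEB (1.67 and 2.15), completed the set. None of the 4 was called in Te, where their values ran from −0.10 (PIM1) to 0.48 (RHEBL1).

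**Figure D3:**
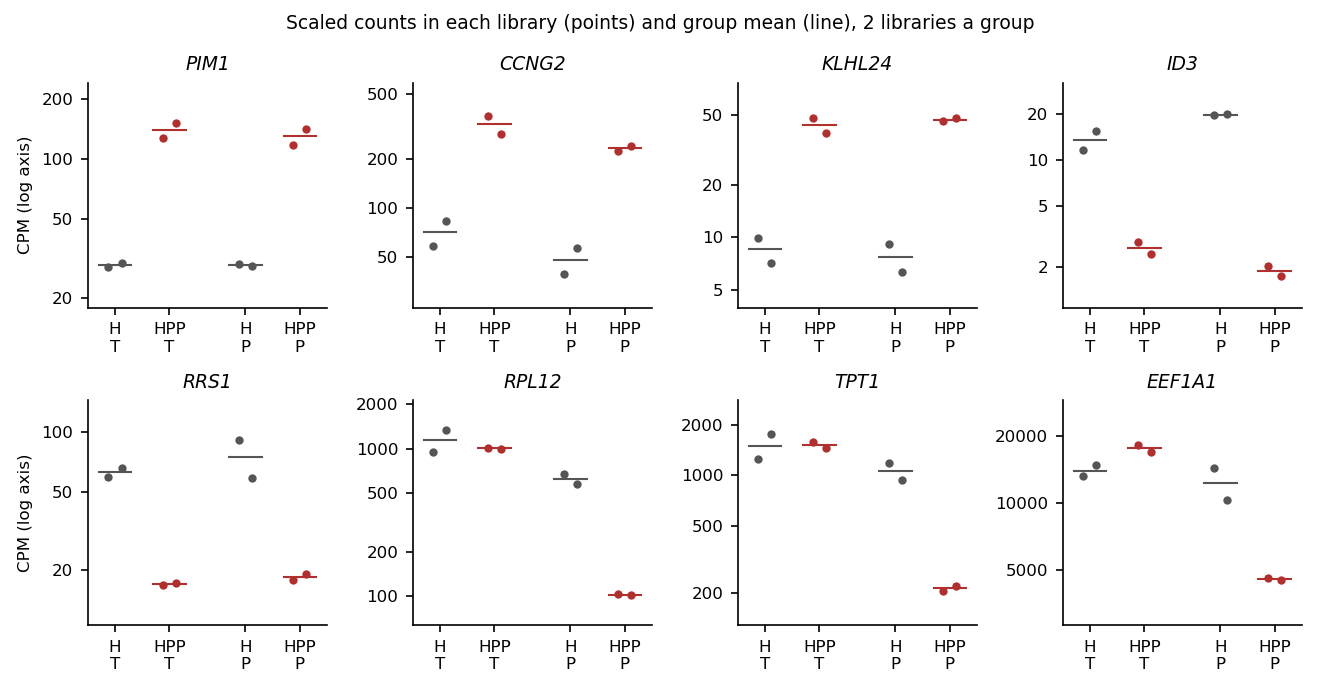
CPM on a log axis for 8 genes in each of the 8 libraries (points, 2 per group, lines at the group mean), H in grey and HPP in red, total mRNA at left and polysomal mRNA at right in each panel. PIM1, CCNG2, KLHL24, ID3 and RRS1 shift in both fractions, whereas RPL12, TPT1 and EEF1A1 are lower in HPP in polysomal mRNA only.

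Lysosome and autophagy genes, which the TFEB family switches on when mTOR complex 1 is inactive, rose in 9 of 49 in total mRNA (18.4%, against 1.7% of all genes) and 13 of 49 in polysomal mRNA (26.5% against 4.86%), with 1 and 2 lower. The medians were 0.24 and 0.30. FNIP1 (1.19 and 1.42) and FLCN (1.07 and 1.10), which act together on the RAG GTPases that bring mTOR to the lysosome, were among those called in both. SQSTM1, an autophagy receptor, rose from 361 and 370 to 621 and 593 CPM in total mRNA and from 464 and 379 to 829 and 793 CPM in polysomes, without overlap. The counts higher in total mRNA were 1, 5 and 1 without H replicate 2, HPP replicate 1 and HPP replicate 2, and those in polysomal mRNA were 7 to 10 with 1 library left out. Of 29 genes of the mTOR complexes and their brakes, SESN3 alone was called in each fraction (not in total mRNA without H replicate 2). That was 3.45% higher, against 1.7% of all genes in total mRNA and 4.86% in polysomal mRNA, and the medians were −0.03 and 0.01. Sterol and fatty acid synthesis genes had 2 and 3 of 34 called higher (5.88% and 8.82%, against 1.7% and 4.86% of all genes; medians 0.21 and 0.27). INSIG1, which holds sterol sensors in the endoplasmic reticulum, had 136.77 and 108.79 CPM in total H and 209.9 and 177.50 CPM in HPP and was called in both fractions (log2FC 0.66 and 0.73). Without H replicate 1 the sterol count was 6 in each fraction, and it was 0 in total mRNA without any 1 of the other libraries and 1 in polysomal mRNA without HPP replicate 1. In Te edgeR and DESeq2 called 0 in these 3 lists, with 0 at an unadjusted p under 0.05.

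The cell cycle lists were read one by one, and differences between them were not tested. Over all genes 1.7% were called higher and 2.08% lower in total mRNA, and 4.86% and 6.62% in polysomal mRNA. Among 44 DNA replication genes 6 fell in total mRNA (13.6%) and 7 in polysomal mRNA (15.9%), with none higher and medians of −0.22 and −0.09. CDC6, which loads the replicative helicase, fell from 179 and 180 to 88.0 and 83.2 CPM in total mRNA and from 183 and 149 to 81.8 and 84.4 CPM in polysomes. MCM10 (−1.22 and −1.02), GINS1 (−0.83 and −0.80) and ORC1 (−0.65 and −0.61), of the same machinery, also fell in both fractions. CDC25A, the phosphatase that starts S phase, stood outside that list and fell from 49.8 and 45.0 to 15.6 and 16.6 CPM in total mRNA (log2FC −1.56, adjusted p = 0.000121). Of 27 cyclins and inhibitors of G1, 4 rose (14.8%) and 3 fell (11.1%) in total mRNA and 5 rose (18.5%) and 4 fell (14.8%) in polysomal mRNA. MXD3 and MNT, which antagonise MYC at its sites, rose (1.48 and 1.46, and 1.11 and 1.00), while SKP2, which degrades the inhibitor p27 (−1.10 and −0.99), and CCNE2, a cyclin of S-phase entry (−0.90 and −0.67), fell. CCND1, cyclin D1, was called lower in polysomal mRNA (−0.68, adjusted p = 0.048), and MYC was called higher there (0.60, adjusted p = 0.0107). Without TMM, when the median of all genes also shifted up, the polysomal median of the replication list was 0.08, with 3 called higher and 4 lower. With 1 library left out, the counts of replication genes lower were 0 to 5 in total mRNA and 2 to 3 in polysomal mRNA, and those of G1 genes ran from 0 to 4 and 1 to 5 higher and from 0 to 3 and 1 to 2 lower.

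Genes of mitosis were called higher where they were called. Of 34, 5 rose in total mRNA (14.7%, against 1.7% of all genes) and 14 in polysomal mRNA (41.2% against 4.86%), none fell, and the medians were 0.26 (0.45 and 0.01 by replicate number) and 0.46. CENPF, a kinetochore protein, rose from 170 and 163 to 302 and 300 CPM in total mRNA and from 138 and 148 to 274 and 312 CPM in polysomes, with no overlap. CENPE, a kinetochore motor (0.79 and 1.16), TTK, a checkpoint kinase (0.62 and 0.98), and HMMR (1.04 and 1.27) were called in both. TOP2A, the mitotic topoisomerase, was called in polysomal mRNA (1.01, adjusted p = 0.000928) and not in total mRNA (0.51, adjusted p = 0.0763). Without H replicate 2 the count in total mRNA was 0, and the polysomal count was 5 to 9 with 1 library left out. In Te edgeR and DESeq2 called 0 of 34 and 1 was higher at an unadjusted p under 0.05. Replication-dependent histones, read here through poly(A) selection although most of their mRNA lacks a tail, rose in 10 of 34 in total mRNA (29.4%, median 1.14) and 12 in polysomal mRNA (35.3%, median 0.83). HIST1H2AC stood at 35.8 and 24.9 CPM in total H and 129 and 145 CPM in HPP, and HIST1H2BK (1.43 and 1.21) and HIST1H1C (1.41 and 1.48) were also called in both. The list took 0.0183 and 0.0154% of total counts in H and 0.0458 and 0.0531% in HPP. Histone genes are near-identical copies, so single values are uncertain. Their counts were 3 to 10 and 6 to 11 with 1 library left out, lowest without HPP replicate 2 in total mRNA and without H replicate 2 in polysomal mRNA.

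ID3 had the lowest log2FC of the called genes in polysomal mRNA that were read at a mean of 5 CPM or more. It is an inhibitor of basic helix-loop-helix factors and a target of BMP signalling. It stood at 11.6 and 15.4 CPM in total H and 2.93 and 2.43 CPM in HPP, and at 19.6 and 20.1 CPM in polysomal H and 2.02 and 1.74 CPM in HPP. Its log2FC was −2.33 ± 0.21 (adjusted p = 8.93e-05) and −3.40 ± 0.22 (adjusted p = 1.32e-06), and the Te change of −1.08 did not pass (adjusted p = 0.271). The other genes with the largest decreases in total mRNA included AEN, a nuclease of the p53 response (−1.82 and −1.84), URB2, a nucleolar protein (−1.48 and −1.38), G0S2, an inhibitor of lipolysis (−1.36 and −1.73), MARS2, the mitochondrial methionyl-tRNA synthetase (−1.36 and −1.27), and AMD1, which makes the donor for polyamine synthesis (−1.34 and −1.47). Of 22 ID genes and BMP or TGF-beta targets as a whole, 2 fell in total mRNA (9.09%, against 2.08% of all genes), and 1 rose and 3 fell in polysomal mRNA (4.55% and 13.6%, against 4.86% and 6.62%; 1 lower with any 1 library left out). The medians of the list were −0.08 and −0.04.

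Signalling and secreted genes are given list by list. In Te edgeR and DESeq2 called 0 of the ERK, inflammatory, interferon and integrin lists, with 0 at an unadjusted p under 0.05, so no difference between the fractions was called. Of 36 genes of ERK feedback and the immediate early response, edgeR called 0 in total mRNA (7 higher and 3 lower at an unadjusted p under 0.05, 5 higher by DESeq2) and 5 higher (13.9%, against 4.86% of all genes) and 1 lower in polysomal mRNA. Among them were ATF3, an immediate early transcription factor (1.11), and DUSP6, a phosphatase of ERK (0.52). Of 23 inflammatory and secreted genes, 0 were called in total mRNA (2 higher and 1 lower at an unadjusted p under 0.05, 2 higher by DESeq2), and IL24 (1.69) and PLAU, the urokinase (0.96), rose in polysomal mRNA (8.7% of the list). Of 26 interferon genes, 0 were called in total mRNA (3 higher and 1 lower unadjusted, 2 and 1 by DESeq2), and IFIT3 (1.03), STAT2 (0.85) and IRF9 (0.75) rose in polysomal mRNA (11.5%). Of 13 integrin genes 0 were called in either fraction by the main edgeR fit or DESeq2. Before adjustment, 2 in total and 5 in polysomal mRNA were higher with a p under 0.05. Their medians were 0.34 and 0.40, and 12 of 13 lay above 0 in each fraction. Some other edgeR fits did call integrins, all higher. With no filter beyond 1 read 2 were called in each fraction. The replicate block called 1 in total and 2 in polysomal mRNA. The fit to only the libraries compared called 0 and 2. Without TMM, with all gene classes and with the length offset 0 were called in either fraction. ITGB3, the beta 3 integrin, was read at 2.15 and 1.09 CPM in total H, 3.1 and 3.49 in total HPP, 2.48 and 3.01 in polysomal H and 3.74 and 4.19 in polysomal HPP. Those levels are low, and the values of 0.98 and 0.53 on the log2 scale did not pass (adjusted p = 0.11 and 0.3). Of 8 mesenchymal genes read as markers, FN1 alone was called, in polysomal mRNA (0.90). FN1, like CDH2 and SPARC, lay below its MCF10A range and so did not mark this line. In total mRNA 0 of the 8 were called (3 higher at an unadjusted p under 0.05, 2 by DESeq2). Of the 6 basal markers of MCF10A and 2 hormone and growth factor receptors tested, edgeR called 0 in either fraction. At an unadjusted p under 0.05 each fraction had 1 basal marker higher, 1 lower and 1 receptor higher, and DESeq2 called the receptor in each fraction and 1 basal marker each way in polysomal mRNA. The calls of the ERK, inflammatory, interferon and mesenchymal lists in polysomal mRNA came down to between 0 and 2 with 1 library left out.

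Members of the hypoxic programme were called in both directions. Of 31 hypoxia targets, 1 rose and 2 fell in total mRNA (9.68% in all, against 3.78% of all genes; 0 without H replicate 2) and 3 rose and 2 fell in polysomal mRNA (16.1% against 11.5%), with medians of 0.04 and 0.19 against −0.03 and 0.00 over all genes. WSB1, a ubiquitin ligase adaptor, rose in both (0.57 and 0.81). EGLN3, an oxygen sensor that marks HIF for degradation (−0.94 and −0.90), and ANGPTL4, a lipase inhibitor (−1.27 and −1.26), fell in both. LOX, a collagen crosslinker, rose in polysomal mRNA (0.54). CA9 was read at 19.22 and 13.03 CPM in total H and 23.5 and 13.9 CPM in total HPP, and NDRG1 at 818 and 598 CPM in H and 1038 and 918 CPM in HPP. The CA9 groups overlapped and neither gene was called. Glycolytic genes had 0 of 25 called in total mRNA by edgeR (1 higher and 3 lower at an unadjusted p under 0.05, 1 lower by DESeq2) and 2 lower in polysomal mRNA (8%, near the 6.62% of all genes). GAPDH was among the latter and stood at 6836 and 5214 CPM in polysomal H and 3227 and 2940 CPM in HPP, while total mRNA gave 4650 and 4952 CPM in H and 4811 and 4753 CPM in HPP. Its polysomal log2FC was −0.97 (adjusted p = 0.000945), and its Te change of −0.96 had an adjusted p of 0.0534. In Te edgeR called 0 of the 25 and DESeq2 called 1 lower, as did the fits with no filter, without TMM, with all gene classes, with the replicate block and with TMM factors from which TOP mRNAs were left out (1 lower at an unadjusted p under 0.05). Without TMM the polysomal calls of the list were 3 higher and 1 lower.

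Of 40 ATF4 targets and amino acid supply genes 1 rose in total mRNA (2.5%, against 3.78% of all genes called), and 3 rose and 1 fell in polysomal mRNA (10% against 11.5%). DDIT3, the CHOP factor, rose in both (1.15 and 0.84). Of 19 mRNAs with upstream reading frames that are translated under stress, 2 rose and 1 fell in total mRNA (15.8%), and 4 rose and 1 fell in polysomal mRNA (26.3%). Both lists had 0 calls in total mRNA without H replicate 2. PPP1R15A, which directs removal of the phosphate from eIF2 alpha, rose from 296 and 350 to 787.5 and 852.5 CPM in total mRNA and from 310 and 326 to 941 and 833 CPM in polysomes, without overlap (log2FC 1.34 and 1.48). None of these genes was called in Te, where 1 was lower at an unadjusted p under 0.05 and DESeq2 called 0. The polysomal counts higher came down to 0 and at most 1 in these lists with 1 library left out, and those of the hypoxia targets to 1.

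**Figure D4:**
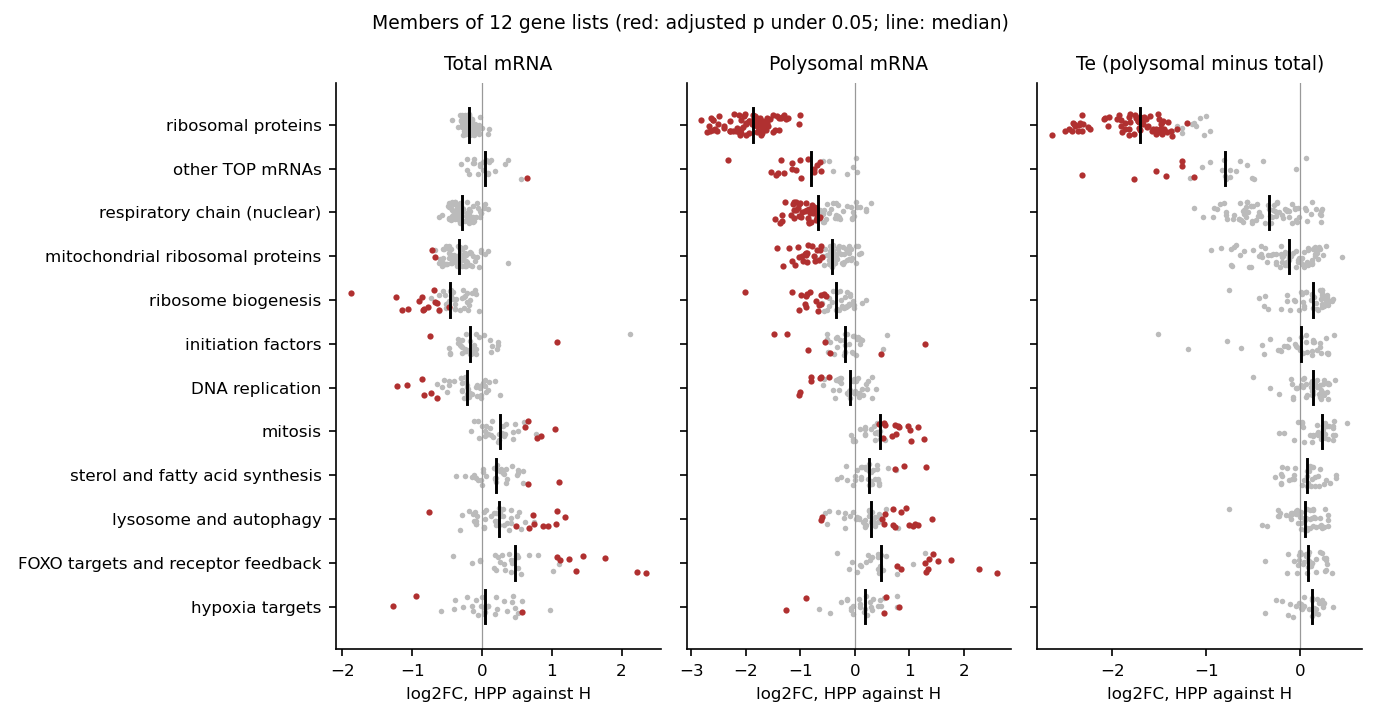
Log2FC of each member of 12 gene lists (points, red where the adjusted p is under 0.05, vertical line at the median) in total mRNA, polysomal mRNA and Te, HPP against H. Ribosomal proteins and other TOP mRNAs are the lists with red points in Te, whereas FOXO targets (8 and 11 called) and ribosome biogenesis (14 and 16 called) are coloured in both fractions and not in Te.

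The PP242 effect in hypoxia was set beside that in normoxia, and the difference between them was tested in the same fit. In normoxia 75 genes were called in total mRNA (0.555%), 264 in polysomal mRNA (1.95%) and 46 in Te (0.34%), against 511, 1551 and 84 in hypoxia. By direction, the normoxic calls in total mRNA were 0.377% higher and 0.178% lower of the genes tested, and those in polysomal mRNA 0.762% and 1.19%. The difference itself was called in 1 gene in each fraction (0.0074%), with 133 genes in total and 563 in polysomal mRNA at an unadjusted p under 0.05, of which 487 of the 563 were more negative in hypoxia. DESeq2 called 2 and 16, and all of the 16 were more negative in hypoxia. So the larger counts in hypoxia were not matched by differences for single genes that passed the test.

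For ribosomal proteins the polysomal share went from 10.3 and 9.21% in N to 4.18 and 4.52% in NPP, and from 9.64 and 8.32% in H to 2.83 and 2.97% in HPP. Both HPP values lay below both NPP values. In normoxia 76 of 79 fell in polysomal mRNA (median −1.32) and 36 in Te (median −1.42). The difference between the polysomal effects had a median of −0.49 and was below 0 for all 79, from −1.57 to −0.18, but edgeR called 0 of 79. An unadjusted p under 0.05 was given to 27 of them, and DESeq2 called 6. In total mRNA the difference was also below 0 for all 79, with a median of −0.29 (0.09 in normoxia and −0.19 in hypoxia), and edgeR and DESeq2 called 0 with 0 at an unadjusted p under 0.05. That direction rested on 1 library: without H total replicate 2 the median was 0.05 with 12 of 79 below 0. In polysomal mRNA the median ran from −0.64 to −0.30 with 1 library left out. RPS21, with the largest difference among them, stood at 244 and 297 CPM in polysomal N, 118 and 137 CPM in NPP, 514 and 466 CPM in H and 75.7 and 79.8 CPM in HPP. It was thus lower in HPP than in NPP although it was higher in H than in N. The difference of −1.57 ± 0.28 had an adjusted p of 0.331. RPL12 (−1.93 in normoxia and −2.60 in hypoxia) gave a smaller difference.

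The other groups are set side by side, in polysomal mRNA unless stated. The other TOP mRNAs had 11 of 24 lower in normoxia (median −0.70) and 17 in hypoxia (−0.80), and 0 differences were called by edgeR or DESeq2, with 0 at an unadjusted p under 0.05. The respiratory chain had 2 of 76 lower in normoxia (median −0.19) and 38 in hypoxia (−0.68). The median difference was −0.37, with 67 of 76 below 0. None passed with edgeR, 23 had an unadjusted p under 0.05 and DESeq2 called 2. In total mRNA the median difference was −0.30 with 75 of 76 below 0, and edgeR and DESeq2 called 0 with 0 at an unadjusted p under 0.05. Without H total replicate 2 it was −0.03 with 43 of 76 below 0. In polysomal mRNA the median ran from −0.52 to −0.21 with 1 library left out. Ribosome biogenesis had 4 of 47 lower in normoxia (median −0.24) and 16 in hypoxia (−0.35), and the difference had a median of −0.11, with 0 called by edgeR or DESeq2 and 3 lower at an unadjusted p under 0.05. In total mRNA it had 1 lower in normoxia and 14 in hypoxia, and the difference had a median of −0.30 with 46 of 47 below 0 (−0.35 to −0.20 with 1 library left out), 0 called by either tool and 4 lower unadjusted. The polysomal difference of −0.11 was 0.00 without H replicate 1. FOXO targets and receptor feedback had 9 of 34 higher in normoxia (median 0.42) and 11 in hypoxia (0.49), and the difference had a median of 0.17 with 23 of 34 above 0, 0 called by either tool and 0 at an unadjusted p under 0.05. Genes described above for their large changes gave differences that were not called: PIM1 had a polysomal log2FC of 1.99 in normoxia and 2.15 in hypoxia, CCNG2 2.71 and 2.27, KLHL24 2.41 and 2.60, ID3 −3.16 and −3.40, and TPT1 −1.93 and −2.32.

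**Figure D5:**
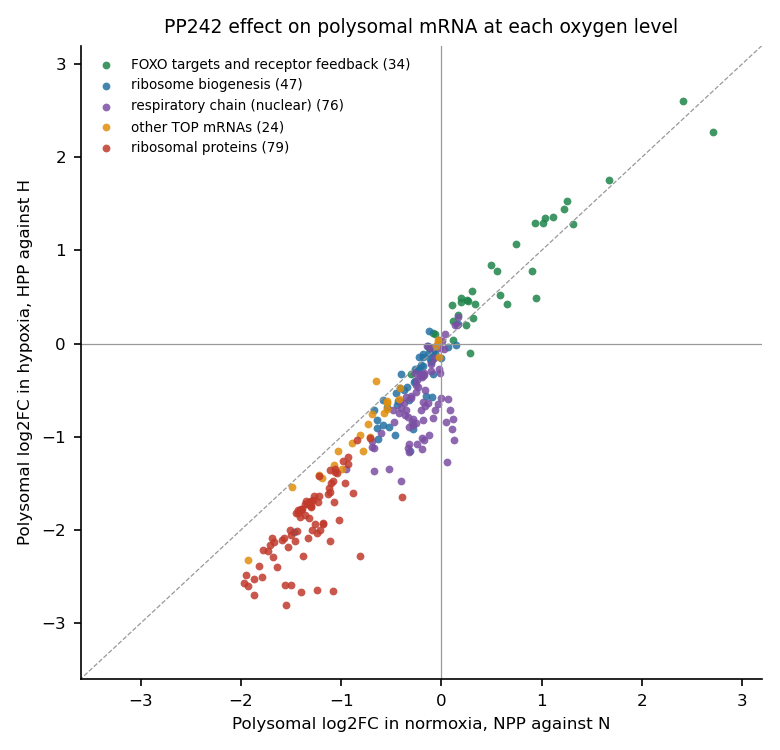
Polysomal log2FC of PP242 in normoxia (x axis, NPP against N) and in hypoxia (y axis, HPP against H) for the members of 5 gene lists, with the dashed line marking an equal effect. The ribosomal protein mRNAs lie below the line (all 79, median difference −0.49), as do most respiratory chain mRNAs (67 of 76), and 23 of the 34 FOXO targets lie above it (median difference 0.17).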

How the data were processed

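The authors deposited a table of expected counts per gene, all whole and not normalised, with a column for each library; per the paper's methods they come from poly(A)-selected paired-end reads, STAR, RSEM and GRCh38, while the submitters' processing notes name GRCh37, and strand is not given in the sources used here. Every column had a sample (0 left without one). Here the 16 MDA-MB-231 libraries were fitted together in 8 groups with edgeR 4.0.16 in R 4.3.3: protein-coding genes (19815 of 60554), filterByExpr, TMM, quasi-likelihood F test, Benjamini-Hochberg adjustment over the 13510 genes tested, threshold 0.05. A two-sided permutation test of 2 against 2 libraries cannot go below 0.333 and was not used.

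The comparison, the 27 gene lists and the genes to name were chosen with earlier results of these data known. Named were, per fraction and Te, the 10 largest called changes each way at a mean of 5 CPM or more with groups apart, up to 4 members with the smallest p and the most abundant member of each list, and 21 set genes, of which some are not reported here. Sequences came from RefSeq (GRCh38.p14), matched by Ensembl gene identifier or, where that gave no match, by symbol. Transcript lengths came from GENCODE. Alternatives were DESeq2 1.42.0, no filter beyond 1 read, no TMM, all gene classes, a fit to only the libraries compared, replicate and culture blocks, a length offset (loess span 0.3), other thresholds, a z-score rule and each library left out. The tests were checked on simulated counts, drawn independently for each gene and so without the composition differences seen between replicates here.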

Additional observations from a re-analysis of the deposited data

Results flagged for a closer look

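The test of the difference between the PP242 effects in hypoxia and normoxia picked out 1 gene in each fraction. In total mRNA it was NDUFC2-KCTD14, with a difference of −10.56 on the log2 scale (adjusted p = 0.000384, edgeR), from a log2FC of −1.99 in hypoxia and 8.57 in normoxia. It was listed at 0 in both N libraries, at 1.06 and 2.02 CPM in NPP, at 2.47 and 2.96 CPM in H and at 0.698 and 0.658 CPM in HPP. It is a readthrough gene that shares its exons with NDUFC2, and a fitted value against a group at 0 depends on the prior count and is no measure of size. In polysomal mRNA it was SPANXA1, with a difference of 5.42 (adjusted p = 0.00365), from −0.76 in hypoxia and −6.18 in normoxia. It stood at 17.9 and 19.0 CPM in N, 0.085 and 0.423 CPM in NPP, 16.3 and 29.2 CPM in H and 11.3 and 15.5 CPM in HPP. SPANXA1 has near-identical copies among which reads may have been split, and DESeq2 did not call it. The cause of either difference was not tested.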

How the results depend on the processing

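Counts of called genes moved with the setting. Of 2342 values under the alternatives of single named genes, most of them chosen for a called change, none changed sign. Of these, 2046 were counted as the same and 296 no longer passed. Gains of a call are not counted there, although DESeq2 called the Te change of RPL8, which edgeR did not. Directions of medians and of counts were less firm: without H total replicate 2 the total mRNA median of ribosomal proteins went from −0.19 to 0.17 and that of the respiratory chain from −0.28 to 0.04. In total mRNA the 230 higher and 281 lower calls became 454 and 516 with DESeq2, 511 and 357 with no filter beyond 1 read, 98 and 48 in a fit to only the 4 libraries compared, 324 and 463 with the length offset, 84 and 50 at an absolute log2FC of at least 1, and 443 and 530 at an adjusted p under 0.10. The 656 higher and 895 lower polysomal calls became 1005 and 951 with no filter, 1263 and 599 without TMM, 154 and 275 at an absolute log2FC of at least 1, and 1030 and 1337 at an adjusted p under 0.10. The 84 Te calls, all lower, became 135 with DESeq2 (0 higher), 138 with no filter (8 higher) and 187 (21 higher) by a z-score of the Te difference over 1.5 in size among polysomal calls at an adjusted p under 0.10. With each library left out in turn the counts ran from 16 to 407 higher and 8 to 385 lower in total mRNA, from 154 to 331 higher and 214 to 701 lower in polysomal mRNA, and from 36 to 122 in Te. Leaving the ribosomal protein and other TOP mRNAs out of the TMM factors of every library, chosen after seeing the data, gave 1561 polysomal and 92 Te calls.

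The single call of a difference between oxygen states in total mRNA became 2 with DESeq2, 16 with no filter, 2 in the fit to only the libraries compared, 2 at an adjusted p under 0.10 and 1 to 2 with a library left out. The single polysomal call, more positive in hypoxia, became 16 with DESeq2, all more negative and without that gene, 51 with no filter and 2 without TMM.

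Whether the replicate numbers pair the libraries is not settled. The differences between replicates correlated at −0.187 between total H and HPP and at 0.0424 between polysomal H and HPP, but over all 28 pairs of groups r ran from −0.187 to 0.348 and 19 pairs were above 0.1. Total and polysomal libraries share a number in their titles, and between them r was 0.00239 in H, 0.107 in HPP, 0.145 in N and 0.348 in NPP. A replicate block gave 446 higher and 500 lower calls in total mRNA, 989 and 1235 in polysomal mRNA, and 2 in each of the oxygen differences, and moved the Te count by less than 1.5 times. A replicate block for culture, which takes the total and polysomal library of 1 number as 1 culture, gave 61 Te calls (3 higher), 43 of them ribosomal proteins in place of 68. With the numbers crossed in total HPP, added after seeing the data, the replicate block gave 372 higher and 407 lower calls in total mRNA.

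Precision is limited by 2 libraries a group, and the part of depth was not tested. Values are relative within a library, and without strand reads of overlapping genes cannot be told apart. The RefSeq starts were matched for 10312 of the 13510 genes.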
